A study of Mus musculus with 4 samples.

Results

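The genes described here make and destroy the cyclic nucleotides cAMP and cGMP. Members were all probes on the array whose gene name begins with Adcy and a number, with Gucy, or with Pde, a family number from 1 to 11 and a subtype letter. That rule took 80 of 55681 distinct probes and 44 of 24185 gene symbols, and it used no measured value. It also took Pde4dip, myomegalin, which is named for its binding to a phosphodiesterase and is described apart.

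The study asked which mRNAs are bound by CPEB2, a protein that binds the cytoplasmic polyadenylation element (CPE) in 3′ untranslated regions and controls translation. RNA was recovered by immunoprecipitation (RIP) with CPEB2 IgG or with control IgG from lysate of cortex and hippocampus of 8-week-old male C57BL/6 mice, and no genetic change is named for these mice. Each of the 2 experiments divided its lysate between the antibodies, incubated it with the antibody beads for 3 h and gave 1 array per antibody, so the 4 arrays form 2 pairs. The titles of these samples and the protocol name CPEB2, although a description field of the CPEB2 IgG samples reads CPEB3 IgG. Both antibodies met the same lysate, so the tissue was the same for both. A difference between them is read here as one in the RNA recovered, within the limit of array position given below.

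Adenylyl cyclases make cAMP from ATP on signals from G proteins and calcium, and guanylyl cyclases make cGMP from GTP on nitric oxide or peptide signals. Phosphodiesterases break both messengers down, and their families differ in whether they take cAMP, cGMP or both. In cortex and hippocampus these enzymes set the strength and spread of cyclic nucleotide signals at synapses, while other family members serve mainly the retina, the olfactory epithelium or the gut.

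The CPE is an RNA motif, written here as the DNA letters TTTTAT or TTTTAAT, and a 60-base probe can contain it only where the probe lies over one. Of the 80 member probes 3 held either form on the strand of the mRNA (3.75%), against 2528 of all 55681 probes (4.54%). The stretches of these 3 probes that hold the motif are shown because the motif is the element CPEB2 is known to bind, with the motif in capitals, 5′ to 3′, as the array annotation gives them on mm9.
Adcy5, from base 22 to 51 of a probe at chr16:35304551-35304610, plus strand: tctttttgtattTTTTATtttgtattattg
Gucy1b3, from base 1 to 30 of a probe at chr3:81836142-81836201, minus strand: tcaTTTTAATtctagcatagaatggactga
Pde4a, from base 31 to 60 of a probe at chr9:21015961-21016020, plus strand: aagtcccccaaaaaagggaTTTTATttttt
All 3 probes passed the test for a higher signal with CPEB2 IgG, as 27.8% of the 1867 tested probes with either motif did and 11.99% of those without. After centring by probe GC content only that of Pde4a passed. Over all tested probes the median log2 fold change was 0.34 with either motif and -0.22 without. The median GC content of these probes was 35.0% with a motif and 45.0% without, and all tested probes with over 30% and up to 35% GC had a median of 0.34 too. After centring by GC content the medians were -0.036 with either motif and -0.21 without, and 18.3% and 9.38% of these probes were higher. The letters outside the probes were not searched, so the absence of a motif from a probe says nothing of the rest of the mRNA.

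A value below is either the raw signal, which is the background-corrected spot intensity of 1 array, or the log2 fold change of CPEB2 IgG over control IgG after each array was scaled to its 75th percentile, given as the mean of both experiments with the SD between them (n = 2). Raw signals are given for CPEB2 IgG arrays 1 and 2 first and for control IgG arrays 1 and 2 after them. The limma fit with the experiment as a block covered 41138 probes that were well above background on at least 2 of the 4 arrays, with Benjamini-Hochberg adjustment over all of them and a threshold of 0.05. Of the member probes 71 entered it, from 43 genes, and 63 were well above background on every array. Another 8 were so on 2 or 3 arrays, among them Gucy2g, 1 probe each of Pde4d and Pde3a and 2 of Adcy10, which entered through 1 antibody alone and so had to differ. The other 9 probes were too dim, 1 each of Gucy2d, Gucy2f, Pde1c, Pde5a, Pde6c, Pde8a and Pde10a and 2 of Gucy2e. Gucy2f, a retinal guanylyl cyclase, was the gene with no tested probe. For a single probe on these 4 arrays the smallest two-sided p of an exact permutation test that ignores the pairs is 0.333. Keeping the pairs leaves fewer arrangements, so only the fit across all probes was used.

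The share of spots well above background ran from 68.4% to 74.1% over the arrays, with no spot saturated. All markers listed for neurons, astrocytes, microglia, oligodendrocytes and striatal projection neurons were detected on all 4 arrays. The photoreceptor transcription factor Crx was detected on 0 arrays. The choroid plexus markers summed to 7436 and 12092 in experiment 1 and to 487.2 and 500.7 in experiment 2, with CPEB2 IgG and control IgG in that order, so they differed by experiment with both antibodies. The summed signals of the neuron markers were 77510.2 and 71811 on the CPEB2 IgG arrays against 120438 and 130559 on the others, with 3 of 9 probes lower and 0 higher by limma (0 higher at an unadjusted p under 0.05). Those of the astrocyte markers were 32749.6 and 30198 against 20859 and 16243, with 1 of 8 probes higher and 3 lower. On the CPEB2 IgG arrays most of that sum was the higher probe, of Slc1a3, at 28729 and 26888.5 against 3302 and 2133. The lower probes were those of Aldh1l1 and Gfap. The microglia markers summed to 9275 and 6835 against 16258 and 12970, with 2 of 8 probes lower and 0 higher by limma. Every marker list had a median log2 fold change below 0, as all tested probes together did. The part of these cells in the results below was not tested. The lysate is bulk tissue. Between the experiments fewer cells of a type and less RNA per cell cannot be told apart, while both antibodies of an experiment met the same lysate. The antibodies were hybridized at different array positions of a slide, and position and antibody cannot be told apart.

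Of the 71 tested member probes 15 were higher with CPEB2 IgG (21.1%), where 12.7% of all tested probes were, and 7 were lower (9.86%), where 14.8% of all were. Pde4dip, which is no enzyme, supplied 4 of the 71 probes and 2 of the lower ones, and these 2 share 52 bases. Without the probes that entered through 1 antibody alone, 14 of 66 were higher (21.2%) and 6 lower (9.09%), against 12.5% and 14.1% of all probes detected with both antibodies. The median log2 fold change was 0.16 over the members and -0.20 over all tested probes, and the members' median was 0.24 in experiment 1 and 0.19 in experiment 2. Another scaling moved the median of all probes by as much as 0.23, after median centring, and member calls then stood at 20 higher and 5 lower, against a split of 57.3% higher among all calls in place of 46.2%. The arrays of the antibodies did not overlap for 50 of the 71 probes, against 65.6% of all probes. Both experiments gave the same sign at 56 member probes and opposite signs at 15. Over all tested probes fewer were called when CPEB2 IgG array 2 or either control IgG array was left out of an unpaired fit. The counts of member probes also fell when single arrays were left out. They were 13 higher and 6 lower without CPEB2 IgG array 1, 6 and 2 without CPEB2 IgG array 2, 9 and 4 without control IgG array 1, and 7 and 2 without control IgG array 2. With dim probes kept in the fit limma called 0 member probes, while 30 had an unadjusted p under 0.05. In that fit 0 of all 55615 probes passed, so every call here depends on leaving out dim probes.

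By the brightest tested probe of each gene, the probe used for a gene below unless another is named, 12 genes were higher, 3 were lower and 28 passed the threshold in neither direction. The lower ones were Pde1a, Pde1b and Pde4dip. Pde4b, Pde4dip, Pde7b, Pde8a, Pde8b and Pde9a kept their calls when any one array was left out. The calls of Adcy9, Pde1a and Pde4a were lost whichever of the 4 arrays was left out, those of Gucy1b3, Pde1b and Pde7a without CPEB2 IgG array 2 or either control IgG array, those of Gucy2g and Pde4d without array 2 of either antibody, and that of Gucy1a2 without CPEB2 IgG array 2 or control IgG array 1. Of the 12 higher genes 1, Gucy2g, entered the fit through CPEB2 IgG alone, and 7 were cAMP phosphodiesterases. The plot of both experiments by class shows the genes in the order of the text.

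The cAMP phosphodiesterases of families 4, 7 and 8 held most of the higher calls. Of their 18 tested probes 9 were higher and 2 were lower, with a median log2 fold change of 0.78 that was above 0 under every scaling tried. Families 7 and 8 are the high-affinity enzymes that rolipram does not block, and all 4 of their genes were higher. Pde8b (chr13:95794492-95794551, minus strand) had raw signals of 15711 and 15939.6 on the CPEB2 IgG arrays against 3224 and 2834 on the control IgG arrays. Its CPEB2 IgG arrays lay far above its control IgG arrays, without overlap, and its log2 fold change was 2.44 ± 0.10 (SD, n = 2, limma adjusted p = 0.00704). Pde8a (chr7:88479261-88479320, plus strand) had raw signals of 991 and 1292 on the CPEB2 IgG arrays against 254 and 241 on the control IgG arrays. Again the antibodies were well apart, by a log2 fold change of 2.24 ± 0.28 (SD, n = 2, limma adjusted p = 0.00804).

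Pde7b (chr10:20119598-20119657, minus strand) had raw signals of 2142 and 2491 on the CPEB2 IgG arrays against 479.7 and 546 on the control IgG arrays, a log2 fold change of 2.23 ± 0.02 (SD, n = 2, limma adjusted p = 0.00767). The probe nearer its 3′ end had 617 and 1478 on the CPEB2 IgG arrays against 326 and 296 on the control IgG arrays and a log2 fold change of 1.67 ± 0.95 (SD, n = 2, limma adjusted p = 0.0328), and CPEB2 IgG array 2 lay well above CPEB2 IgG array 1. That probe did not pass the threshold without the replicate block (adjusted p = 0.0542 from limma) or after centring by probe GC content, where it stood at 1.06. Pde7a (chr3:19126220-19126279, minus strand) had 558 and 731 on the CPEB2 IgG arrays against 258 and 294 on the control IgG arrays, with no overlap between the antibodies. Its log2 fold change was 1.26 ± 0.10 (SD, n = 2, limma adjusted p = 0.0264), and its 5′ probe, at 0.38, had opposite signs in the experiments.

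Family 4 enzymes, the targets of rolipram, were split among their probes. Pde4a was higher at both of its probes. The probe shown above with the motif had raw signals of 19475 and 13044 on the CPEB2 IgG arrays against 2737 and 2379 on the control IgG arrays. These arrays differed by a log2 fold change of 2.70 ± 0.31 (SD, n = 2, limma adjusted p = 0.00683), the highest among the members. The other probe of Pde4a (chr9:21017591-21017650, plus strand) had 12804 and 10516 on the CPEB2 IgG arrays against 5580.4 and 5063 on the control IgG arrays, without overlap, and a log2 fold change of 1.18 ± 0.14 (SD, n = 2, limma adjusted p = 0.0325).

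For Pde4b the 3′-most of 4 probes (chr4:102279393-102279452, plus strand) had 3518 and 5070.4 on the CPEB2 IgG arrays against 976 and 1092 on the control IgG arrays. The CPEB2 IgG arrays were higher without overlap, by a log2 fold change of 2.09 ± 0.22 (SD, n = 2, limma adjusted p = 0.0089). Its 5′-most probe, far upstream at chr4:101927825-101927884, went the other way. That probe had 67.8 and 67.8 on the CPEB2 IgG arrays against 137 and 155 on the control IgG arrays and a log2 fold change of -1.05 ± 0.17 (SD, n = 2, limma adjusted p = 0.0454). The remaining probes of Pde4b stood at 0.13 and 0.30 and passed in neither direction. Thus the probes of 1 gene were called in opposite directions, and the array does not say which isoforms they read.

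Pde4d was higher at 1 of its probes. Its 3′-most probe (chr13:110745631-110745690, plus strand) had raw signals of 1401 and 1437 on the CPEB2 IgG arrays against 549 and 388 on the control IgG arrays, higher with CPEB2 IgG without overlap. The log2 fold change was 1.67 ± 0.34 (SD, n = 2, limma adjusted p = 0.0148). Another probe (chr13:110051079-110051138, plus strand) entered the fit through control IgG alone, so its direction was fixed and its call is no evidence of one. It was well above background with control IgG only, at 13.2 and 3.95 on the CPEB2 IgG arrays against 48.7 and 148 on the control IgG arrays. Its signal was at least 5.68-fold lower with CPEB2 IgG (means -5.86 and -2.36 on the scaled log2 scale), the size of the difference varied widely between the experiments, and the call was lost after centring by probe GC content. The other 2 probes of Pde4d had log2 fold changes of 0.33 and 0.05. Pde4c was recovered at high signals with both antibodies, 80469.7 and 97032 on the CPEB2 IgG arrays against 84526 and 76673 on the control IgG arrays, and its log2 fold change of 0.19 ± 0.25 (SD, n = 2, limma adjusted p = 0.669) was not past the threshold.

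**Figure D1:**
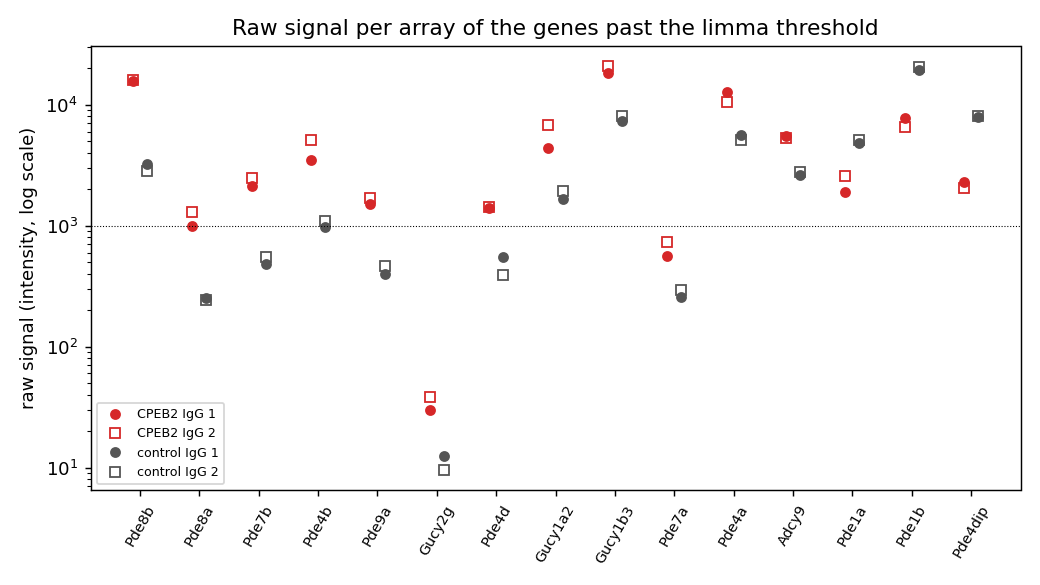
Raw signal per array on a log axis for the brightest probe of the 15 genes past the limma threshold, ordered by log2 fold change, with red for CPEB2 IgG, grey for control IgG, filled circles for experiment 1 and open squares for experiment 2. The dotted line marks 1000, the raw signal the study required. Signals of different genes come from different probes and are not to be compared.

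Phosphodiesterases that take both cAMP and cGMP gave no higher call by limma. Of their 16 tested probes 3 were lower by limma. At an unadjusted p under 0.05, 5 were lower and 1 was higher, of Pde3a, which entered through CPEB2 IgG alone. The median log2 fold change was -0.11, which turned to 0.06 after quantile normalization and 0.12 after median centring. All 3 probes called lower belonged to family 1, the calcium and calmodulin stimulated enzymes. Pde1b (chr15:103360424-103360483, plus strand) had raw signals of 7749 and 6599 on the CPEB2 IgG arrays against 19408 and 20355 on the control IgG arrays. It was lower with CPEB2 IgG without overlap, by a log2 fold change of -1.42 ± 0.25 (SD, n = 2, limma adjusted p = 0.021). Pde1a (chr2:79705201-79705260, minus strand) had 1907 and 2583 on the CPEB2 IgG arrays against 4807 and 5067 on the control IgG arrays and a log2 fold change of -1.10 ± 0.21 (SD, n = 2, limma adjusted p = 0.0408). That call was lost after median centring and after centring by probe GC content, and the 5′ probe of Pde1a stood at -0.27. Pde1c was lower at its 5′ probe, with 35.2 and 32.1 on the CPEB2 IgG arrays against 76.5 and 70.3 on the control IgG arrays and a log2 fold change of -1.07 ± 0.051 (SD, n = 2, limma adjusted p = 0.0408), while its brightest probe, with 92.4 and 75.8 against 75.99 and 56.98, stood at 0.40 and was not past the threshold. The lower call of Pde1c was lost after centring by probe GC content.

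The remaining enzymes of both substrates passed in neither direction. Pde2a, which cGMP stimulates, had high signals of 68458 and 65760.5 on the CPEB2 IgG arrays against 48372 and 48457 on the control IgG arrays. Its arrays did not overlap, but a log2 fold change of 0.52 ± 0.085 (SD, n = 2, limma adjusted p = 0.219) missed the threshold. Pde3a, which cGMP inhibits, had 61.9 and 49.1 against 69.9 and 55.5 and a log2 fold change of -0.12. Its relative Pde3b had 401 and 324 against 255 and 210.0, without overlap, and 0.69. Another probe of Pde3a stood at 0.73 and another of Pde3b at 0.06, each without a call. A dim Pde3a probe reached 1.57 with both control IgG arrays below background, at least 1.55-fold (means -4.38 and -5.95 on the scaled log2 scale), with 0.49 in experiment 1 and 2.64 in experiment 2. Pde10a, a striatal enzyme, had 3813 and 4642 on the CPEB2 IgG arrays against 5098 and 5933 on the control IgG arrays and a log2 fold change of -0.33 ± 0.0038 (SD, n = 2, limma adjusted p = 0.42). Its CPEB2 IgG arrays were the lower ones, and the striatal markers were detected on all 4 arrays. A dimmer tested Pde10a probe had 621 and 718 against 1055 and 1635, without overlap, and -0.92 without a call. Another Pde10a probe, not tested, was well above background on 1 array only, that of CPEB2 IgG in experiment 2. Pde11a, with 252 and 179 against 231 and 242, stood at -0.10 and had opposite signs in the experiments. Its dimmer probes had 0.26 and -0.82, both without a call.

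Among enzymes that take cGMP, 1 of 9 tested probes was higher and none was lower by limma (1 at an unadjusted p under 0.05), and the median log2 fold change was -0.16, or 0.069 after median centring. The higher one was Pde9a (chr17:31610161-31610220, plus strand), the enzyme with the highest affinity for cGMP, at 1497 and 1697 on the CPEB2 IgG arrays against 400.0 and 463 on the control IgG arrays. Its antibodies were well apart, with a log2 fold change of 1.94 ± 0.063 (SD, n = 2, limma adjusted p = 0.00961). Pde5a, the target of sildenafil, had 349 and 524 on the CPEB2 IgG arrays against 323 and 487 on the control IgG arrays, which overlapped between the antibodies, and a log2 fold change of 0.16 ± 0.045 (SD, n = 2, limma adjusted p = 0.707). The other genes belong to the photoreceptor enzyme. Its catalytic subunits in rods are Pde6a, with 32.9 and 29.7 against 38.6 and 47.4 and a log2 fold change of -0.40, and Pde6b, with 18.1 and 19.9 against 26.9 and 51.4 and -0.92. The catalytic subunit of cones, Pde6c, had 61.5 and 44.3 against 80.2 and 73.7 and -0.51. For these genes the control IgG arrays were the higher ones without overlap. The inhibitory subunit of rods, Pde6g, had 152 and 136 against 133 and 247 and -0.28, and that of cones, Pde6h, 33.8 and 40.1 against 41.3 and 38.3 and -0.06, and both overlapped. Pde6d, a carrier of prenylated proteins in many tissues, had 641 and 738 against 836 and 758 and -0.16. None of these 6 genes passed the limma threshold, and 1 of them, Pde6b, had an unadjusted p under 0.05. Of the photoreceptor markers, Sag, Gnat1 and Rcvrn were detected, on 3 or 4 arrays, with log2 fold changes of -0.90, -0.74 and -0.87 and no call, and Crx was not. The part of photoreceptor RNA in these values was not tested.

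The membrane adenylyl cyclases were mostly above 0. Of their 11 tested probes 2 were higher and none was lower by limma (0 at an unadjusted p under 0.05), and the median log2 fold change was 0.71, above 0 under every scaling tried. Adcy9 (chr16:4287678-4287737, minus strand), the isoform that responds poorly to forskolin, had 5475 and 5282 on the CPEB2 IgG arrays against 2619.8 and 2759.8 on the control IgG arrays. The CPEB2 IgG arrays were higher without overlap, with a log2 fold change of 1.05 ± 0.13 (SD, n = 2, limma adjusted p = 0.0439). The call was also lost with the percentile taken over detected probes. Adcy5, an isoform that calcium inhibits, was higher only at its 3′-most probe, the one shown with the motif, at 1026 and 999 on the CPEB2 IgG arrays against 526 and 443 on the control IgG arrays and a log2 fold change of 1.12 ± 0.11 (SD, n = 2, limma adjusted p = 0.0368). After centring by probe GC content it was 0.50 and no longer past the threshold. The brightest probe of Adcy5 had 4272 and 3678 against 2971 and 2133, without overlap. It stood at 0.71 and the 5′-most probe at 0.16, with GC contents of 40.0% and 45.0% against 35.0% for the 3′-most.

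Adcy1 and Adcy8 are the isoforms that calcium and calmodulin stimulate. Adcy1 (chr11:7077699-7077755, plus strand) had 3992 and 4558 on the CPEB2 IgG arrays against 2484 and 2149.8 on the control IgG arrays. Its arrays did not overlap and its log2 fold change was 0.94 ± 0.24 (SD, n = 2, limma adjusted p = 0.0637), which passed without the replicate block (adjusted p = 0.0393 from limma). Adcy8 had 172 and 193 on the CPEB2 IgG arrays against 137 and 77.6 on the control IgG arrays and a log2 fold change of 0.87 ± 0.66 (SD, n = 2, limma adjusted p = 0.117). Both experiments placed it above 0, by 0.41 and 1.34. Adcy2 and Adcy7 are stimulated by G protein βγ subunits. Adcy2 had 562 and 660.0 against 398 and 404 and a log2 fold change of 0.66, and Adcy7 58.8 and 109 against 38.5 and 48.04 and 0.95, each without overlap and without a call.

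The experiments had opposite signs for 2 isoforms. Adcy6, the nearest relative of Adcy5, had 932 and 715 on the CPEB2 IgG arrays against 1979 and 358 on the control IgG arrays, so control IgG array 1 was the highest and control IgG array 2 the lowest. Its log2 fold changes were -1.003 and 1.02. Adcy4 had 50.02 and 64.02 against 79.4 and 42.9, with log2 fold changes of -0.58 and 0.60. Adcy3, best known from olfactory cilia, had 27.8 and 33.9 against 30.7 and 37.8, which overlapped, and stood at -0.10. Adcy10, the soluble bicarbonate-sensitive adenylyl cyclase, was below background with both CPEB2 IgG arrays at its brightest probe, 15.6 and 7.10 on the CPEB2 IgG arrays against 26.6 and 52.3 on the control IgG arrays. The signal there was at least 2.30-fold lower with CPEB2 IgG without passing the threshold (means -5.31 and -3.54 on the scaled log2 scale), and the other probes of Adcy10 had -0.85 and -0.72.

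Soluble guanylyl cyclase, the receptor of nitric oxide, is made of an alpha and a beta subunit. Of 6 tested probes for its subunits 2 were higher and none was lower by limma (0 at an unadjusted p under 0.05). The median log2 fold change was 0.72, and 0.11 after centring by probe GC content. Gucy1b3, the beta subunit that RefSeq now names Gucy1b1, had 18386 and 20828 on the CPEB2 IgG arrays against 7327 and 8131 on the control IgG arrays at the probe shown with the motif. No arrays overlapped, and the log2 fold change was 1.40 ± 0.021 (SD, n = 2, limma adjusted p = 0.0199). After centring by probe GC content it was 0.78 and no longer past the threshold. Gucy1a2 (chr9:3905576-3905635, plus strand), an alpha subunit of brain, had 4397 and 6783 on the CPEB2 IgG arrays against 1664 and 1948 on the control IgG arrays and a log2 fold change of 1.65 ± 0.24 (SD, n = 2, limma adjusted p = 0.0141).

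The 3 probes of Gucy1a2 differed along the gene. From 5′ to 3′ they had log2 fold changes of -0.64, 1.05 and 1.65. The middle one missed the threshold by its adjusted p of 0.05002 from limma and passed without the replicate block, at 0.0334. Gucy1a3, the other alpha subunit, now Gucy1a1, had 4673 and 6929 on the CPEB2 IgG arrays against 4352 and 4684 on the control IgG arrays. Its raw signals overlapped between the antibodies, and the log2 fold change was 0.39 ± 0.28 (SD, n = 2, limma adjusted p = 0.371). Gucy1b2, a further beta subunit, had 78.7 and 84.8 against 79.3 and 94.8 and stood at -0.03. Thus the beta subunit and 1 of its alpha partners were higher, and whether the alpha subunits differed from each other was not tested.

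Membrane guanylyl cyclases were dim. Gucy2g was well above background with CPEB2 IgG only, at 29.97 and 38.4 on the CPEB2 IgG arrays against 12.4 and 9.53 on the control IgG arrays. Its signal was at least 2.71-fold higher with CPEB2 IgG (means -3.62 and -5.32 on the scaled log2 scale). It entered the fit through CPEB2 IgG alone, so its direction was fixed and its call is no evidence of one. Gucy2c, the gut receptor of guanylin, had 116 and 88.9 against 98.4 and 97.9 and a log2 fold change of 0.10. Gucy2d, of olfactory neurons, had 129.6 and 125 against 117 and 177 and -0.12, and the retinal Gucy2e 71.6 and 72.98 against 64.9 and 87.7 and -0.01. Each of these 3 genes overlapped and had opposite signs in the experiments.

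Pde4dip is an anchoring protein of the Golgi and centrosome and no enzyme. Its 3′-most probes, which share 52 bases and so are not independent, were both lower. The one used for the gene (chr3:97493756-97493815, minus strand) had 2274 and 2053 on the CPEB2 IgG arrays against 7983 and 7995 on the control IgG arrays. These arrays were far apart, with a log2 fold change of -1.83 ± 0.15 (SD, n = 2, limma adjusted p = 0.0109). The probes toward its 5′ end had 0.28 and 0.12.

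**Figure D2:**
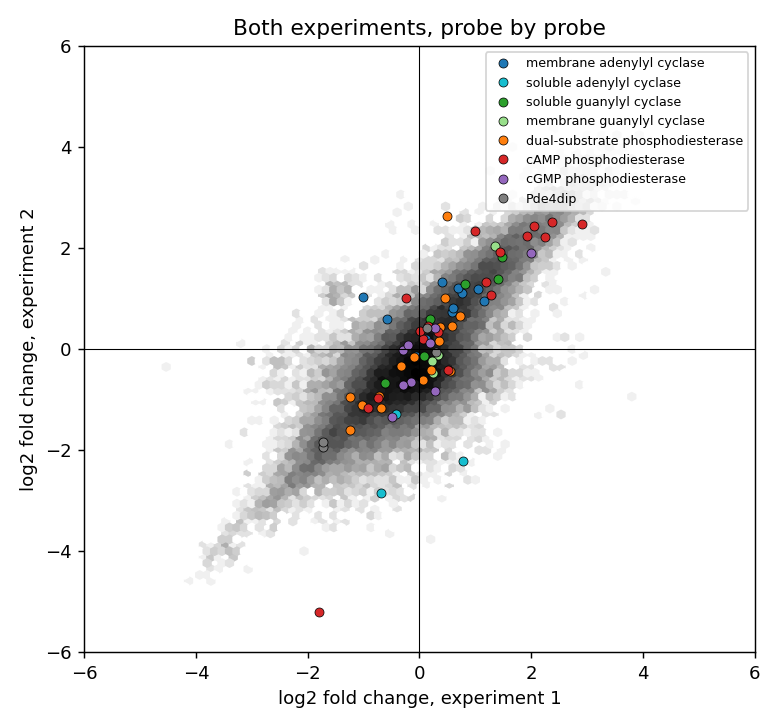
Log2 fold change in experiment 1 (horizontal axis) against experiment 2 (vertical axis) for all 41138 tested probes as grey density on a log scale, with the 71 member probes as points colored by class. Of these points 56 lie in the quadrants where both experiments have the same sign.

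Several probes were tested for 17 genes, of which 8 had the same outcome at every tested probe. Of these 8, only Pde4a and Pde7b had a call at every probe, and the rest had none at any. The 3′-most probe had the higher log2 fold change than the 5′-most in 10 of the 17 (58.8%), with a median difference of 0.59. Over all 5412 such genes on the array it was higher in 3890 (71.9%), with a median difference of 0.48, but these include genes with closely spaced probes. The end probes of every one of the 17 lay at least 510 bases apart. Among the 4398 genes on the array with ends about that far apart or farther, 3279 had the higher value at the 3′-most probe (74.6%). Their median difference was 0.64, above that of the members. The 3′-most probe also had the lower GC content in 9 of the 17. The part of position, isoform and base composition in these differences was not tested. The plot of probes within genes shows Pde8b next to the genes named above, with 2.44 at its 3′ probe and -0.86 at its 5′ probe, which had 84.4 and 66.97 on the CPEB2 IgG arrays against 149 and 133 on the control IgG arrays and was not past the threshold.

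**Figure D3:**
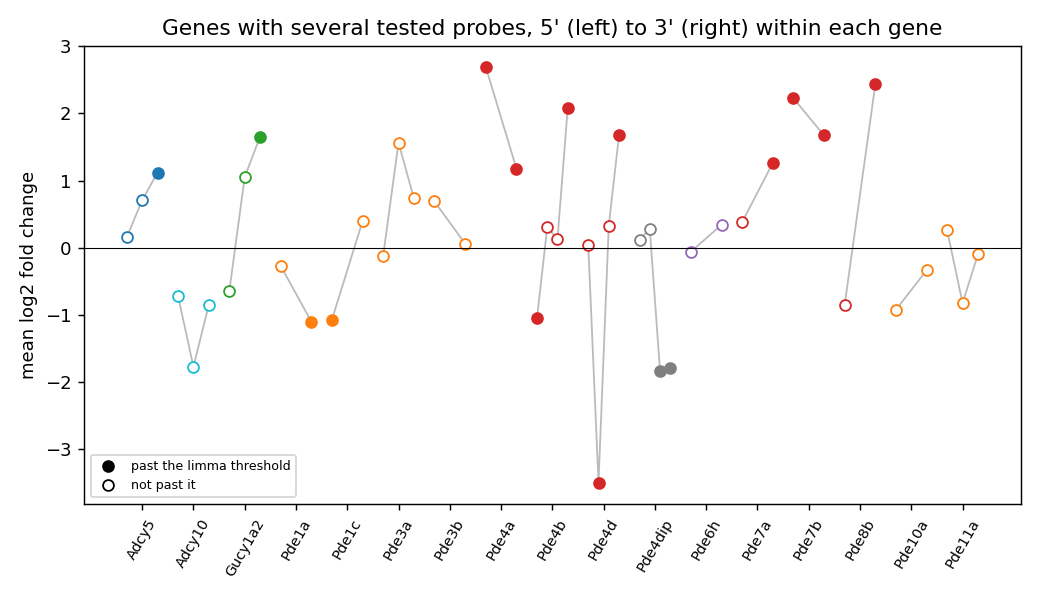
Mean log2 fold change (vertical axis) of each tested probe of the 17 genes with several, from 5′ on the left to 3′ on the right within each gene, colored by class as in the other plots. Filled points are past the limma threshold, and those of Pde4b lie on both sides of 0, as do those of Pde4d, whose lower point entered the fit through control IgG alone.

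GC content of the probe moved with the log2 fold change. Across the 71 tested member probes the Spearman correlation was -0.48, and across all 41138 probes it was -0.33. These are correlations across probes of the same 4 arrays, and probes are not independent replicates. The median GC content was 36.7% for the higher member probes, 45.0% for the lower ones and 43.3% for the rest. After the log ratios were centred within bins of GC content 12 member probes were higher and 4 lower, all of them among the earlier calls. Over all tested probes 4024 were then higher and 5505 lower, in place of 5228 and 6095. Pde8b then stood at 1.82, Pde8a at 1.63, Pde7b at 2.32 and Pde9a at 2.04, and each was still past the threshold. The median of the cAMP phosphodiesterases was 0.86 in that fit.

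**Figure D4:**
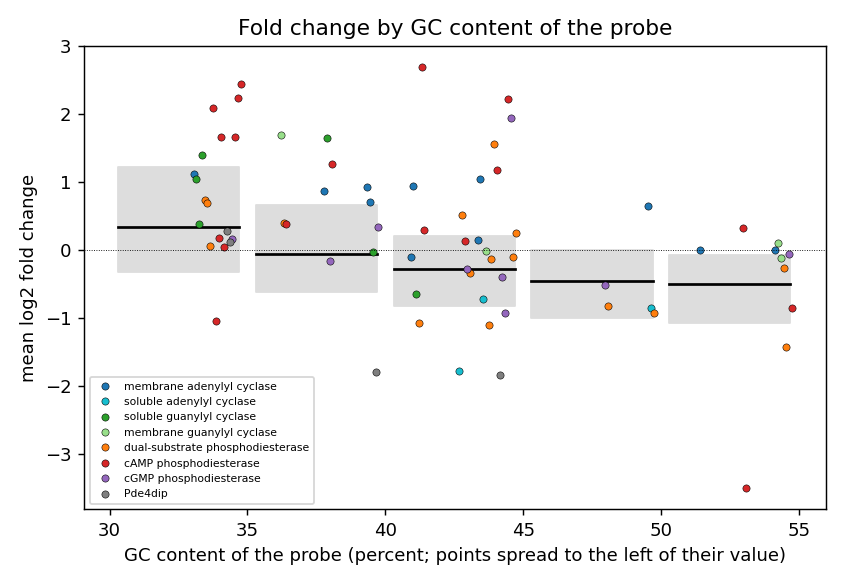
Mean log2 fold change (vertical axis) against GC content of the probe (horizontal axis) for the 71 tested member probes, colored by class. Black lines are medians and grey bars the interquartile ranges of all tested probes in bins of 5 percentage points, with medians from 0.34 in the lowest bin drawn to -0.50 in the highest.

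The study's own thresholds ask for a fold change over 1.5, taken here as the mean of both experiments, and for a raw signal over 1000, taken here on either CPEB2 IgG array. They were applied without its filter on CPEs. They were passed by 12 of the 19 member genes with such a signal, against 47.7% of all 7033 genes with one. Those genes were Adcy1, Adcy5, Adcy9, Gucy1a2, Gucy1b3, Pde4a, Pde4b, Pde4d, Pde7b, Pde8a, Pde8b and Pde9a. The 7 other genes bright enough were Gucy1a3, Pde1a, Pde1b, Pde2a, Pde4c, Pde4dip and Pde10a. Gucy2g and Pde7a were called by limma but had too little signal for these thresholds.

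Around these enzymes, 49 genes that supply or read cyclic nucleotides were listed, and 77 probes of 46 of them were tested. Of these probes 20 were higher (26.0%) and 11 lower (14.3%), against 12.7% and 14.8% of all tested probes, with a median log2 fold change of 0.04. Inhibitors and anchors of protein kinase A had 8 higher and 0 lower probes of 16 by limma, and 0 of 16 were lower at an unadjusted p under 0.05. The higher probes were those of the kinase inhibitors Pkia, Pkib and Pkig and of the anchors Akap7, Akap9 and Akap11. Transcription factors and cAMP exporters had 6 higher and 1 lower of 13. The largest higher values were those of Atf1, a transcription factor that protein kinase A activates, at 3.66 ± 0.51 (SD, n = 2, limma adjusted p = 0.00679), at a probe that the annotation places at chrX:51185510-51185569, and of Abcc5, a cyclic nucleotide exporter, at 3.20 ± 0.17 (SD, n = 2, limma adjusted p = 0.00679). The other probes of Atf1 lie on chromosome 15 and had 1.89 and 1.28, both higher. Another probe of Abcc5 was lower, with a log2 fold change of -1.07, so its probes were called in both directions.

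G protein alpha subunits acting on adenylyl cyclase had 0 higher and 4 lower of 13 probes by limma, those of Gnas, Gnao1 and Gnaz, and 2 probes, of Gnai1 and Gnai3, were higher at an unadjusted p under 0.05. Effectors of cAMP went both ways, with 4 higher and 4 lower of 16. The higher ones were regulatory subunits of type II of protein kinase A, Prkar2a and Prkar2b, and the lower ones those of type I, Prkar1a and Prkar1b, together with Rapgef3, the exchange factor Epac1. Another Prkar1a probe of like signal stood at 0.24 with opposite signs in the experiments, and a dim one at -0.67, both without a call. Rapgef3 had the largest lower value, -2.30 ± 0.16 (SD, n = 2, limma adjusted p = 0.00754). The next were Nos1, neuronal nitric oxide synthase, with -1.71 at a dim probe, and Prkar1a, with -1.68 ± 0.19 (SD, n = 2, limma adjusted p = 0.0133). Cyclic nucleotide gated channels had 1 higher probe, of Hcn3, and 0 lower of 10 by limma (1 at an unadjusted p under 0.05, of Cnga3, which entered the fit through control IgG alone), and the cGMP kinases 0 and 0 of 2 (0 and 0 at an unadjusted p under 0.05). Of the nitric oxide synthases and natriuretic peptide receptors 1 probe was higher and 2 lower of 7. The higher one was that of Npr3, a clearance receptor that is no cyclase, and the lower ones those of Nos1 and Nos3, while the particulate cyclase Npr2 stood at 0.14 without a call and Npr1 was not tested.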

How the data were processed

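RNA recovered with CPEB2 IgG or control IgG was measured on 4 one-color Agilent SurePrint G3 Mouse GE arrays, 2 per antibody. The authors deposited a scanner file per array from Agilent Feature Extraction 10.5.1.1, and these intensities per spot are background-corrected by that software but not scaled between arrays. Probe names and coordinates (mm9) are those of the array annotation. RefSeq gave current symbols for all 44 genes. Probes were not assigned to exons or untranslated regions, as no annotation of that build was used here.

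Control spots and spots marked as uneven or outliers were left out, repeated spots were averaged, 66 probes lacking a value on an array were dropped (0 of them members), and log2 signals were scaled to each array's 75th percentile. limma 3.58.1 in R 4.3.3 was fitted per probe with the experiment as a block, on probes well above background on at least 2 arrays, with Benjamini-Hochberg adjustment over all of them and a threshold of 0.05. The fit leaves 1 residual degree of freedom per probe, and the number of arrays limits the precision. The pairing comes from the methods, which divide each lysate between the antibodies, and the arrays of a pair deviated together (correlation of their deviations 0.21). The fit was tested on simulated data of 41138 probes with log2 fold changes of 1 or 2 in size. With 200 probes changed it called 0 of them at either size. With 16000 changed it called 46.05% of those at 1 and 96.8% of those at 2, and 3.55% of its calls were false. A probe without a call can thus have changed. Python 3.11.15 with pandas 2.3.3 and scipy 1.17.1 did the rest.

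A probe below background on both arrays of a group was given a bound, computed against the higher of its own signal and the lowest signal well above background on each of those arrays. Every member gene is named, with raw signals mainly for its brightest tested probe. Genes of the pathway list are given as counts, with values for those that changed most. Members and lists were chosen with earlier results of these data known. Alternatives were other scalings, normexp background correction with an offset of 50, centring by probe GC content, marked spots kept, no block, an intensity trend, other filters and thresholds, other ways to combine probes, and each array or experiment left out. A marker on the photoreceptor list is not reported here.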

Additional observations from a re-analysis of the deposited data

How the results depend on the processing

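Settings were changed one at a time, except that single arrays were left out of an unpaired limma fit, in which the lone remaining array of an antibody is assumed to vary like the other group. Of the 15 genes called by their brightest probe, all were kept with no scaling, quantile normalization, marked spots kept, an intensity trend and no replicate block. Without the block for the pairing, member probes were 16 higher and 8 lower, and Adcy1 was gained. With no filter on dim probes 0 of all 55615 probes, and so 0 member and 0 pathway probes, passed in either direction by limma. In that fit 30 member probes had an unadjusted p under 0.05. Lower member probes were 4 after GC centring and 3 when only the brightest probe of each gene was fitted. Over all probes fitted the lower ones were 5505 of 41138 and 4020 of 19698. An intensity trend gave 18 lower pathway probes. With single arrays left out, higher member probes were 13 and 6 without CPEB2 IgG array 1 and 2 and 9 and 7 without control IgG array 1 and 2, lower ones 6, 2, 4 and 2, higher pathway probes 20, 11, 11 and 12 and lower ones 10, 4, 3 and 2. Averaging the probes of each gene lost the calls of Gucy1a2, Pde1a, Pde4b and Pde7a. It turned Pde4d to -0.36 without a call, a mean that takes in the probe whose direction was fixed. The median log2 fold change over all members was 0.31 after quantile normalization, 0.38 after median centring, 0.10 with no scaling, 0.048 with the percentile over detected probes, 0.11 with normexp and from 0.19 to 0.24 in single experiments. That of cAMP phosphodiesterases was 1.01 after median centring and from 0.75 to 1.04 in single experiments, that of cGMP phosphodiesterases 0.069 after median centring, -0.27 with the percentile over detected probes and from -0.15 to -0.016 in single experiments, and that of soluble guanylyl cyclase 0.11 after GC centring. Genes passing the thresholds of the study numbered from 9 to 14. Values of 16 genes without a call, none above 0.40 in size, changed sign under some setting. The causes of these changes were not tested. Signals near background limit what could be read for the membrane guanylyl cyclases, Adcy10 and photoreceptor subunits.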
